A study of Mus musculus with 6 samples.

Results

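The axon guidance ligands and receptors comprised 60 genes of the 27506 in the count table, chosen by gene symbol: 20 semaphorins (class 3 to class 7), 11 plexins and neuropilins, 8 ephrins, 14 Eph receptors and 7 Slits and Robos. Their transcripts were measured by RNA-seq of dental pulp from mandibular first molars of C57BL/6 mice at postnatal day 3.5. There were 3 libraries from Ror2fl/fl mice, which carry the floxed alleles without Cre and served as controls, and 3 from Osr2-Cre;Ror2fl/fl mice, called mutants here. Ror2 encodes a receptor for non-canonical Wnt ligands, and the comparison asked how transcript levels differ when it is deleted from the mesenchyme of the tooth. Osr2-Cre acts in dental mesenchyme and alveolar bone and not in dental epithelium, so both deleted and undeleted cells contributed RNA, and the controls carried no Cre to separate an effect of Cre itself. All floxed alleles were also present in the controls. No source states how many animals gave each library, so the p-values measure only the spread between these samples. The labels and published methods do not say whether controls and mutants were prepared or sequenced together. A difference in handling could therefore not be told apart from genotype.

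Guidance molecules steer growing axons by attracting or repelling the growth cone, and many also act on blood vessels, epithelia and mesenchyme. Semaphorins signal through plexins, with the neuropilins as co-receptors for most secreted class 3 members. Ephrins are membrane-bound and signal in both directions with Eph receptors on neighbouring cells, whereas Slits are secreted and are bound by Robo receptors. In teeth, sensory and sympathetic axons grow into the pulp along with vessels during root formation, and Sema3a is known to repel the axons of the trigeminal ganglion from the developing tooth.

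The libraries held 56134770 to 62628940 estimated counts, and edgeR's biological coefficient of variation was 18.7%. Ror2 itself was 37.0 ± 1.02 CPM (read counts relative to the scaled size of the library, SD, n = 3) in controls and 27.4 ± 0.961 CPM in mutants, with no overlap. Mutant library 2 stood apart: it was the lowest of the 6 libraries for 29 of the 56 tested guidance genes (51.8%) and for 27.4% of all genes tested, so counts are also given without it. For the marker lists that follow, counts of called genes stand beside 10.4% of all genes tested called higher and 9.84% called lower. The summed level of the pericyte and smooth muscle genes was 408 to 496 CPM in controls and 313 to 387 CPM in mutants. Of these 8 genes 1, Abcc9, was called lower. By log2 fold change 6 of the 8 were lower and 2 higher, Acta2 and Tagln (0.31 and 0.13). The skeletal muscle sum was 10.4 to 35.8 CPM in controls and 2.6 to 3.49 CPM in mutants, with all 6 genes called lower. Of these, Ckm, Myh3 and Myh8 were at most 0.121, 0.102 and 0.322 CPM in mutants. These genes entered the test through the controls, where they were higher, so their calls carry no weight. The dental mesenchyme sum did not overlap either, at 449 to 514 CPM in controls and 540 to 602 CPM in mutants. Of its 8 genes 2, Dlx2 and Msx2, were called higher. The list as a whole was mixed, with 4 genes higher and 4 lower by log2 fold change and a median of -0.07. DESeq2 called 2 of these genes higher and 2 lower. Of the blood list 2 of 6 genes were called lower (sums of 782 to 1319 and 243 to 933 CPM), and of the bone list 1 of 7, Sost (1246 to 1632 and 1320 to 1591 CPM). The odontoblast sum overlapped between the groups (14808 to 46530 and 13109 to 35830 CPM) and was lowest in control library 1 and mutant library 2 within their groups. Enamel epithelium was represented in every library, with a dental epithelium sum of 171280 to 191615 CPM in controls and 184885 to 255106 CPM in mutants, although the tissue was labelled dental pulp. Endothelial, Schwann cell, neuronal and leukocyte sums overlapped between the groups, and the neuronal markers Prph and Nefl were near 0. Whether these differences in marker levels took part in any result below was not tested, and in bulk RNA fewer cells of a type and less RNA per cell cannot be told apart.

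Of the 60 genes, 56 had enough counts to be tested, and 8 passed a threshold of 0.05 on the Benjamini-Hochberg adjusted p of edgeR's quasi-likelihood test. Sema3f, Sema4a, Sema4g, Efna1 and Efna3 were higher in mutant pulp, and Sema3a, Sema6d and Efna5 were lower, all by less than 2-fold. This is 14.3% of the members tested, beside 20.2% of the 19330 genes tested (10.4% higher and 9.84% lower). All 8 were ligands: 8 of 31 ligands were called and 0 of 25 tested receptors, where 5 receptors had an unadjusted p under 0.05 (38.3% of all genes tested did) and DESeq2 called 2 (28% of all genes). The difference between ligands and receptors was not tested. The median log2 fold change was -0.13 over the members and 0.01 over all genes. Control and mutant libraries did not overlap for 23 of the 56 members (41.1%; 13 higher and 10 lower), against 44.7% of all genes tested. With 3 libraries against 3 the smallest exact permutation p is 0.1, so calls rest on the model fitted across all genes.

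**Figure D1:**
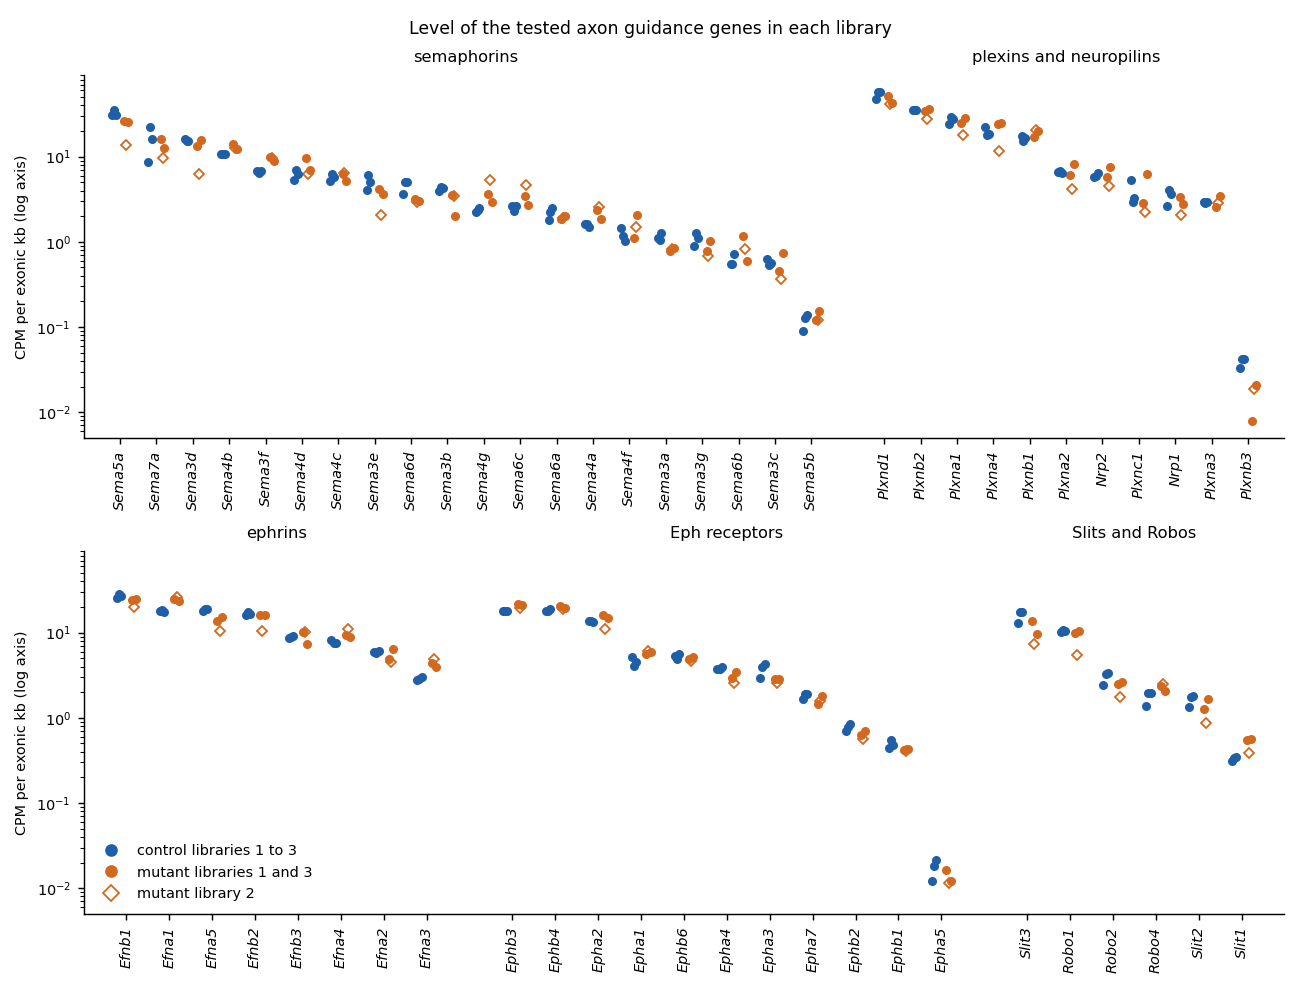
Level of each of the 56 tested guidance genes in each library, in CPM per exonic kilobase on a log axis, by family and ordered by mean level. Blue points are the 3 control libraries, filled orange points mutant libraries 1 and 3, and open diamonds mutant library 2. Levels span from Plxnd1 at 54.2 CPM per kb in controls down to Epha5 at 0.0173, and the open diamond is the lowest point for many genes.

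The level of a gene relative to other genes was compared as CPM per kilobase of exon, since long transcripts collect more reads. On this scale 17 of the 60 members averaged at least 10 CPM per kb over the groups, and 46 at least 1 CPM per kb. The plexins and neuropilins had the highest summed level of the 5 families, 170 to 179 CPM per kb in controls and 136 to 181 in mutants. The semaphorin sum was 108 to 132 CPM per kb in controls and 91.7 to 122 in mutants, and the ephrin sum 102 to 109 and 98.0 to 108. The sum of the Slits and Robos was 28.8 to 35.7 CPM per kb in controls and 18.5 to 30.4 in mutants, with the lowest value in mutant library 2. Epha6, Epha8, Epha10 and Robo3 were not tested because they did not pass edgeR's filter, which asks for enough counts in at least 3 libraries. They had at most 26 counts in any library.

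The secreted class 3 semaphorins, which include the classical axon repellents, differed among themselves in direction: 1 of 7 was higher, 1 was lower and 5 were not called. Of all genes tested 10.4% were called higher and 9.84% lower. Sema3f, a ligand for neuropilin 2 that repels axons and vessels (chromosome 9, 107681500 to 107710475, minus strand, mm10), was 35.2, 33.6 and 35.6 CPM in control libraries 1 to 3 and 51.2, 50.2 and 46.1 CPM in mutant libraries 1 to 3. Every mutant library was above every control library. The log2 fold change was 0.50 ± 0.087 (SE), an increase of 1.41-fold (edgeR, adjusted p = 0.0092), the smallest p among the members. The call was lost under 3 of the 17 alternatives: with the GC offset (0.27, edgeR adjusted p = 0.0791) and without control library 2 or 3.

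Sema3a, the neuropilin 1 ligand that repels sensory axons (chromosome 5, 13125414 to 13602565, plus strand), moved the other way. It was 15.2, 14.6 and 17.8 CPM in controls and 10.8, 11.4 and 11.7 CPM in mutants. All mutant values lay below all control values, and the gene fell by 29.0% (log2 fold change -0.49 ± 0.12, edgeR adjusted p = 0.024). The call was lost under 6 of the 17 alternatives. With an offset for GC content and length the log2 fold change was -0.09 (adjusted p = 0.615), and the GC offset alone, the replicate block, and leaving out control library 2 or 3 or mutant library 1 also ended the call.

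Among the other class 3 members, Sema3d was 130 to 139 CPM in controls and 54.1 to 136 CPM in mutants, where library 3 lay within the control range and library 2 was the lowest. Sema3e, which binds plexin D1 directly, was 37.9 to 57.1 CPM in controls and 19.1 to 38.8 CPM in mutants, again lowest in mutant library 2. Sema3b had a log2 fold change of -0.49 ± 0.21 (edgeR adjusted p = 0.12) without overlap, and passed the threshold only with the GC offset or the GC and length offset, at adjusted p of 0.0437 and 0.0421. Sema3c and Sema3g were scarce, at 2.58 to 5.32 and 3.08 to 5.71 CPM over all libraries.

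The membrane-bound and GPI-anchored semaphorins of classes 4 to 7 gave 2 higher and 1 lower gene among 13. The shares over all genes tested were 10.4% higher and 9.84% lower. Sema4g, a transmembrane class 4 member (chromosome 19, 44989101 to 45003397, plus strand), had the largest increase of the called members. It was 19.3, 20.4 and 21.6 CPM in controls and 31.7, 46.5 and 25.6 CPM in mutants, a log2 fold change of 0.76 ± 0.20 or 1.69-fold (edgeR adjusted p = 0.0337). Every mutant library was above the controls, and mutant library 2 was the highest. Without that library the log2 fold change was 0.50 and passed. The call was lost under 6 of the 17 alternatives: without control library 1, 2 or 3 or mutant library 1, with the GC offset, and with the replicate block.

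Sema4a, known also for its part in immune and retinal cells (chromosome 3, 88435959 to 88461182, minus strand), was 8.82, 8.64 and 8.06 CPM in controls and 12.7, 13.7 and 10.1 CPM in mutants. The groups were separate, and the log2 fold change was 0.52 ± 0.14 (edgeR adjusted p = 0.0358). It was the least stable of the 8 calls, lost under 9 of 17 alternatives, including the omission of mutant library 2 (0.43, adjusted p = 0.062).

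Sema6d, a transmembrane class 6 semaphorin that binds plexin A1 (chromosome 2, 124089969 to 124667770, plus strand), was 38.8, 53.7 and 53.6 CPM in controls and 33.8, 31.0 and 32.0 CPM in mutants. The mutants were tightly grouped below all controls, of which control library 1 was the nearest. The gene fell by 33.8% (log2 fold change -0.59 ± 0.13, edgeR adjusted p = 0.0215). Its call was kept with both the GC offset and the GC and length offset. It was lost under 3 of the 17 alternatives: with the replicate block and without control library 2 or 3.

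Sema5a, an integral membrane semaphorin, was the semaphorin with the highest level, at 32.2 CPM per kb in controls and 21.8 CPM per kb in mutants. In CPM it was 570, 657 and 580 in controls and 491, 256 and 478 in mutants. All mutant values lay below the controls, but mutant library 2 was far below the other two, and the difference did not pass the threshold (log2 fold change -0.56 ± 0.23, edgeR adjusted p = 0.117). Without mutant library 2 the log2 fold change was -0.30 (adjusted p = 0.068).

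Sema4b lay just beyond the threshold. It varied little in controls (60.1 ± 0.155 CPM, n = 3), was 73.2 ± 4.57 CPM in mutants without overlap (log2 fold change 0.28 ± 0.086, edgeR adjusted p = 0.0506), and passed under 5 of the 17 alternatives. Sema6c was 15.0 ± 1.16 CPM in controls and 21.3 ± 5.75 CPM in mutants (log2 fold change 0.51 ± 0.19, edgeR adjusted p = 0.0851). Sema7a, a GPI-anchored semaphorin, ranged from 28.9 to 74.1 CPM within the controls alone, lowest in control library 1. The odontoblast sum of that library was also the lowest of the controls, and a link was not tested. Sema4c, Sema4d, Sema4f, Sema5b, Sema6a and Sema6b overlapped between the groups, with adjusted p of 0.202 to 0.748 in edgeR.

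**Figure D2:**
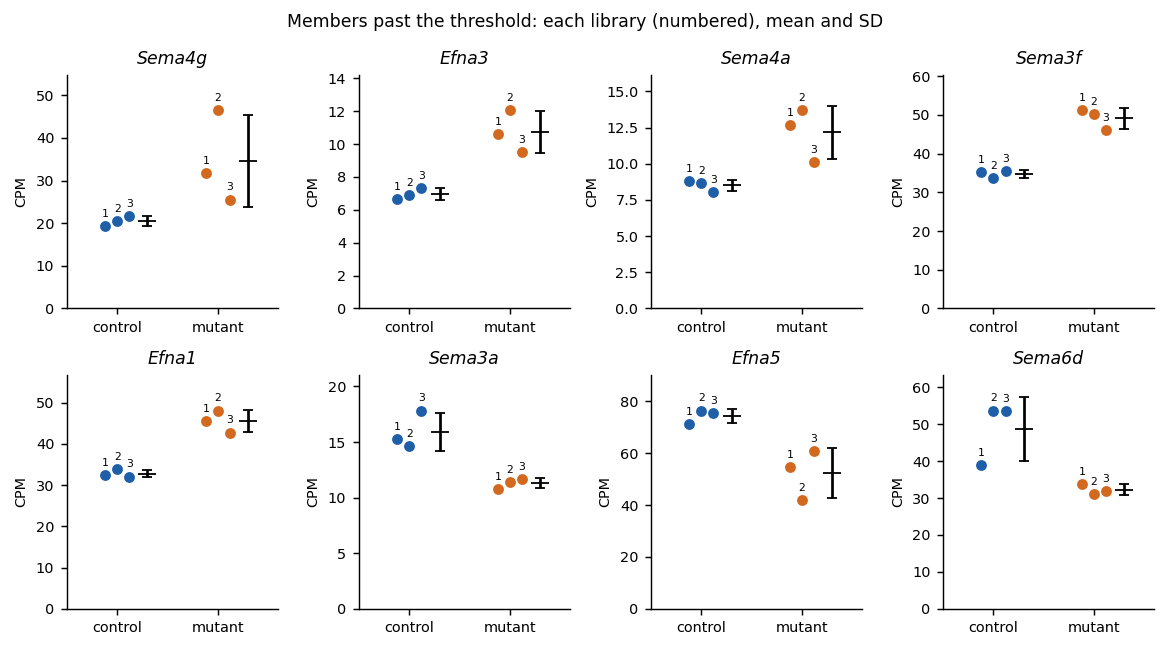
CPM of the 8 called members in each library, numbered 1 to 3, on linear axes from 0, with the mean and SD of the 3 libraries of each group in black. In all 8 genes the 3 control libraries (blue) and the 3 mutant libraries (orange) do not overlap, and Sema4g and Efna5 have the widest spread among mutants.

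No plexin or neuropilin was called: 0 of 11 passed edgeR's threshold, 1 had an unadjusted p under 0.05, and DESeq2 called 0. Over all genes tested these shares were 20.2%, 38.3% and 28%. Plxnd1, the receptor for Sema3e in endothelium, had the highest level per length of all members, 54.2 CPM per kb in controls and 45.2 CPM per kb in mutants. It was 342, 424 and 422 CPM in controls and 374, 307 and 308 CPM in mutants. Control library 1 fell among the mutants, and the log2 fold change of -0.26 ± 0.14 did not pass (edgeR adjusted p = 0.191).

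Plxnb2, a receptor for class 4 semaphorins, was nearly equal in the 3 controls (276 ± 0.314 CPM, n = 3) and was 267, 217 and 283 CPM in mutants. Plxna4, a class A plexin through which Sema3a signals, was 250 to 315 CPM in controls and 166 to 355 CPM in mutants, where mutant library 2 was lowest and libraries 1 and 3 were above every control. Nrp1, the Sema3a co-receptor, was 33.6 ± 7.15 CPM in controls and 26.8 ± 6.23 CPM in mutants (edgeR adjusted p = 0.274), and Nrp2, the Sema3f co-receptor, 72.0 ± 4.21 and 70.7 ± 18.3 CPM (adjusted p = 0.925). The receptors of the class 3 ligands that changed showed no difference past the threshold. Plxnb3 had 14, 16 and 17 counts in controls and 3, 7 and 8 in mutants, so it entered the test through the group where it was higher, and its separation and unadjusted p carry no weight. Its log2 fold change of -1.30 ± 0.45 did not pass (edgeR adjusted p = 0.0715), and the groups of the other 10 members of the family overlapped.

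Among the 8 ephrins 2 were higher and 1 was lower, and all 3 were GPI-anchored ephrin-A ligands. Over all genes tested 10.4% were called higher and 9.84% lower. Efna1, Efna3 and Efna4 are neighbours on mouse chromosome 3 and are all transcribed from the minus strand (mm10, 89271733 to 89281142, 89313899 to 89322965 and 89333390 to 89338028). Because all mutant libraries lay above all control libraries for each of the 3, although Efna4 did not pass the threshold, bases before a transcription start of each are shown. The sequences are RefSeq's promoter windows on GRCm38.p6, the mm10 assembly, limited to bases upstream of the first-numbered transcript of each gene in GENCODE M21. For each gene the window nearest the start of that transcript was used. For Efna1 a further transcript, with its start codon in a later exon, starts upstream of the stretch, so the stretch lies within the span of the gene, in an intron of that transcript. They are written 5′ to 3′ along the gene, with GC boxes (GGGCGG, or CCGCCC for the other strand) in capitals.
Efna1, chr3:89279646-89279895, minus strand: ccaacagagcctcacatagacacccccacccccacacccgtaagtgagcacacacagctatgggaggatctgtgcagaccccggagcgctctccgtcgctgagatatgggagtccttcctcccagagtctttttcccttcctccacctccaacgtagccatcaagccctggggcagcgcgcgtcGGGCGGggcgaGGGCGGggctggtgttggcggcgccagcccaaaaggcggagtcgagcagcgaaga
Efna3, chr3:89322966-89323189, minus strand: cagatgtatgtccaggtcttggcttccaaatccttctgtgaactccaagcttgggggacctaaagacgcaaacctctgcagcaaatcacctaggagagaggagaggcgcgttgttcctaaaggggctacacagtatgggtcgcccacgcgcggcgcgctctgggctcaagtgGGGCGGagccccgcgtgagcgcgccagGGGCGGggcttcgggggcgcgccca
Efna4, chr3:89338029-89338278, minus strand: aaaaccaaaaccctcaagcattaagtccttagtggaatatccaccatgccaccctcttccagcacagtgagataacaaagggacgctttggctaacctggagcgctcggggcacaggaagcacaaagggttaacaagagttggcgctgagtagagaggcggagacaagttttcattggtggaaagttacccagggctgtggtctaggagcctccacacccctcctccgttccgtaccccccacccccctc
The Efna1 stretch held 2 GC boxes and was 64.4% G and C. The Efna3 stretch also held 2 GC boxes, with 63.4% G and C, and the Efna4 stretch held 0, with 54.4%. A GC box on either strand was found in 35.7% of the 32851 RefSeq windows of 300 bases and in 71.0% of the 69 windows of the 53 members with an entry. A TATA box (TATAAA, or TTTATA for the other strand) was found in 13.6% of all windows, in 2.90% of the members' windows, and in none of the windows of these 3 starts. A match is a description of the letters only.

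Efna1, an ephrin of endothelial and epithelial cells, was 32.5, 33.8 and 32.1 CPM in controls and 45.5, 48.1 and 42.7 CPM in mutants. The controls were within 2 CPM of each other and every mutant library was above them. The log2 fold change was 0.47 ± 0.088, or 1.39-fold (edgeR adjusted p = 0.0115). With the GC offset it was 0.30 and with the GC and length offset 0.24, and neither passed (adjusted p = 0.0529 and 0.093).

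Efna3, at a lower level, was 6.67, 6.88 and 7.35 CPM in controls and 10.6, 12.1 and 9.50 CPM in mutants. The groups were again separate, with mutant library 2 the highest, and the log2 fold change was 0.62 ± 0.13, or 1.54-fold (edgeR adjusted p = 0.0164). Efna3 was still called with either offset, at a log2 fold change of 0.42 or 0.41. Its call was lost with the replicate block and without control library 2 or 3. The gene shares 14.1% of its exonic bases with Gm15998 on the opposite strand, and without known strand use in the counting their reads cannot be told apart.

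Efna4 was 13.0, 12.1 and 12.2 CPM in controls and 15.0, 17.9 and 14.1 CPM in mutants. The mutant libraries were all above the controls, yet the log2 fold change of 0.33 ± 0.12 did not pass (edgeR adjusted p = 0.0847). It passed only without mutant library 3 (adjusted p = 0.0496). Efna4 overlaps 4731419I09Rik on the opposite strand over 10.5% of its exonic bases.

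The nearest tested protein-coding genes were then examined, 4 on each side, a choice made after the ephrin-A values were seen. Their calls stand beside 10.4% of all genes tested called higher and 9.84% called lower. On the Efna1 side the 3 nearest were higher in mutants: Slc50a1, which encodes a sugar transporter (log2 fold change 0.49 ± 0.13, edgeR adjusted p = 0.0357), Dpm3, a subunit of the dolichol-phosphate mannose synthase (0.44 ± 0.11, adjusted p = 0.0313), and Krtcap2, a subunit of the oligosaccharyltransferase (0.38 ± 0.088, adjusted p = 0.023). The other 5 neighbours, Trim46 beyond Krtcap2 and Adam15, Dcst1, Zbtb7b and Flad1 beyond Efna4, did not pass (edgeR adjusted p = 0.132 to 0.855). With the GC and length offset the log2 fold changes of Slc50a1, Dpm3 and Krtcap2 were 0.24, 0.12 and 0.13, and none passed (adjusted p = 0.165 to 0.437).

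**Figure D3:**
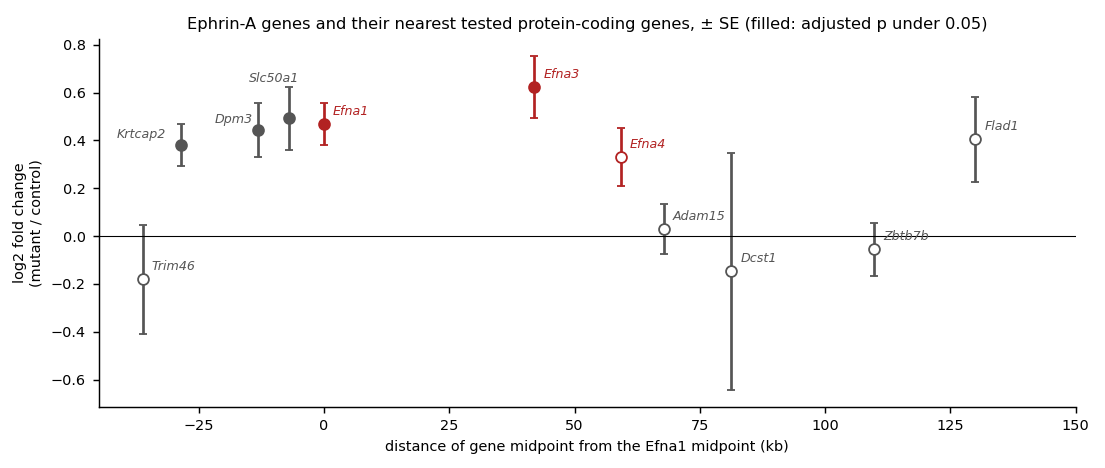
Log2 fold change (mutant over control) ± SE of the 3 neighbouring ephrin-A genes (red) and the 4 nearest tested protein-coding genes on each side (grey), plotted against the distance of their midpoints from that of Efna1 in kilobases. Filled points passed an adjusted p of 0.05: Efna1, Efna3 and the neighbours Slc50a1, Dpm3 and Krtcap2 did, and Efna4 at 0.33 and the genes beyond it did not.

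Efna5, an ephrin-A that repels retinal and motor axons (chromosome 17, 62604184 to 62881317, minus strand), went the opposite way from Efna1 and Efna3. It was 71.4, 76.5 and 75.5 CPM in controls and 54.7, 41.8 and 60.8 CPM in mutants. All mutant libraries were lower, with library 2 the lowest, and the gene fell by 29.6% (log2 fold change -0.51 ± 0.14, edgeR adjusted p = 0.0368). The call was lost under 7 of the 17 alternatives: without control library 1, 2 or 3 or mutant library 1, with the replicate block, and with the GC offset (adjusted p = 0.0888) or the GC and length offset (adjusted p = 0.11). Without mutant library 2 the log2 fold change was -0.36 and passed. Per length Efna5 and Efna1 exchanged order, from 18.5 and 17.9 CPM per kb in controls to 13.0 and 24.8 CPM per kb in mutants, a comparison that was not tested between the genes.

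Efnb1, a transmembrane ephrin, was the ephrin with the highest level, at 27.1 CPM per kb in controls and 23.1 in mutants. In CPM it was 87.8, 99.3 and 93.7 in controls and 84.5, 69.5 and 85.2 in mutants. The mutant libraries were all below the controls, but the log2 fold change of -0.23 ± 0.11 did not pass (edgeR adjusted p = 0.157). Efnb2, the arterial ephrin, was 109 to 120 CPM in controls and 71.1 to 111 CPM in mutants, and Efna2 and Efnb3 also overlapped between the groups.

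None of the 11 tested Eph receptors passed edgeR's threshold, where 3 had an unadjusted p under 0.05 and DESeq2 called 2. Of all genes tested 38.3% had such a p and DESeq2 called 28%. The groups did not overlap for 6 of the 11 receptors (54.5%), 3 higher and 3 lower, against 44.7% of all genes tested. Ephb3, a receptor of the transmembrane ephrins, had the highest mean level per length, at 18.0 CPM per kb in controls and 20.6 in mutants, close to Ephb4, the venous receptor of Efnb2, at 18.3 and 19.9 CPM per kb. In CPM Ephb3 was 120, 119 and 120 in controls and 145, 128 and 139 in mutants. The mutants were higher, but the log2 fold change of 0.20 ± 0.094 did not pass (edgeR adjusted p = 0.16), and it was -0.01 with the GC offset.

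The EphA receptors nearest the threshold included members in both directions. Epha1, which Efna1 binds, was 18.0 ± 2.13 CPM in controls and 23.0 ± 0.989 CPM in mutants (log2 fold change 0.35 ± 0.11, edgeR adjusted p = 0.0596). Epha3 was 32.3 ± 5.85 CPM in controls and 24.0 ± 1.36 CPM in mutants (-0.43 ± 0.14, adjusted p = 0.0637). Epha4, a receptor for ephrins of both classes, was 30.4 ± 0.972 and 24.0 ± 3.47 CPM (-0.34 ± 0.12, adjusted p = 0.0737). All 3 had groups without overlap, and DESeq2 called Epha1 and Epha3. With the GC and length offset Epha1, Epha3 and Epha4 had log2 fold changes of 0.21, -0.07 and -0.08. None passed with that offset (edgeR adjusted p = 0.24 to 0.699). Epha2, the most abundant EphA receptor at 13.6 CPM per kb in controls, was 62.5 to 64.6 CPM in controls and 52.1 to 76.1 CPM in mutants.

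**Figure D4:**
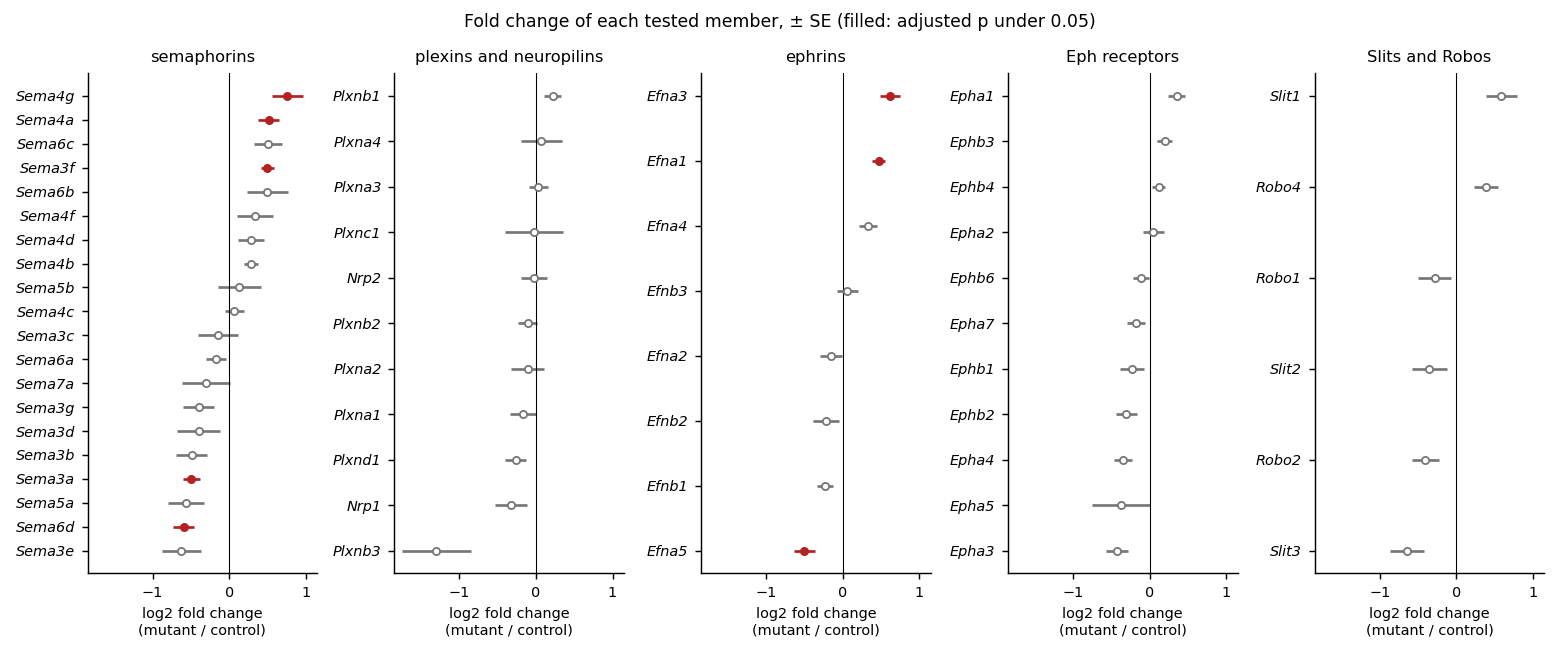
Log2 fold change (mutant over control) ± SE of the 56 tested members, one panel per family, ordered by value. Filled red points passed an adjusted p of 0.05 and open grey points did not: 5 semaphorins and 3 ephrins are filled, and all plexins, neuropilins, Eph receptors, Slits and Robos are open.

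Of the 6 tested Slits and Robos 0 passed edgeR's threshold, where 3 had an unadjusted p under 0.05 and DESeq2 called 2. Among all genes tested 38.3% had such a p and DESeq2 called 28%. Slit3, a secreted Robo ligand made by mesenchyme and vessels, had the highest level, 16.0 CPM per kb in controls and 10.2 in mutants. In CPM it was 79.3, 107 and 105 in controls and 83.1, 45.1 and 57.8 in mutants. Control library 1 lay below mutant library 1, and the log2 fold change of -0.64 ± 0.22 missed the threshold (edgeR adjusted p = 0.0684). Without mutant library 1 it was -0.91 and passed (adjusted p = 0.0277), and without mutant library 2 it was -0.45 (adjusted p = 0.124).

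Slit1, found mainly in the nervous system, was scarce, at 1.97 ± 0.121 CPM in controls and 2.96 ± 0.589 CPM in mutants (log2 fold change 0.59 ± 0.20, edgeR adjusted p = 0.0734). Its groups did not overlap. Robo1 was steady at 170 to 178 CPM in controls, and was 165, 90.9 and 171 CPM in mutants, where library 2 alone was far below the rest. Robo4, the Robo of endothelial cells, was 7.34 to 10.4 CPM in controls and 11.0 to 13.3 CPM in mutants, without overlap (edgeR adjusted p = 0.113). The endothelial marker sum was 203 to 266 CPM in controls and 192 to 253 CPM in mutants. By log2 fold change 4 of these 8 markers were higher and 4 lower, and a link of Robo4 to endothelial content was not tested. Robo2 and Slit2 overlapped between the groups.

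Members had more exonic bases, merged over the transcripts of a gene, with a median of 7.04 kb against 3.61 kb over all genes tested. Their longest transcripts were richer in G and C (55.7% against 49.6%). The length offset used the longest transcript of each gene. With an offset for GC content and length, 3 members were higher (Efna3, Sema3f and Sema4g) and 3 lower (Sema6d, Sema3b and Slit3), and the median log2 fold change was 0.01, where 14.8% of all genes were called. Leaving out mutant library 2 gave 6 higher and 3 lower members, of which 7 were among the 8, beside 19% of all genes. Leaving out control library 2 or control library 3 gave 0 called members in edgeR, where 10 had an unadjusted p under 0.05 in each case and 910 (4.57%) and 872 (4.39%) of all genes were called.

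**Figure D5:**
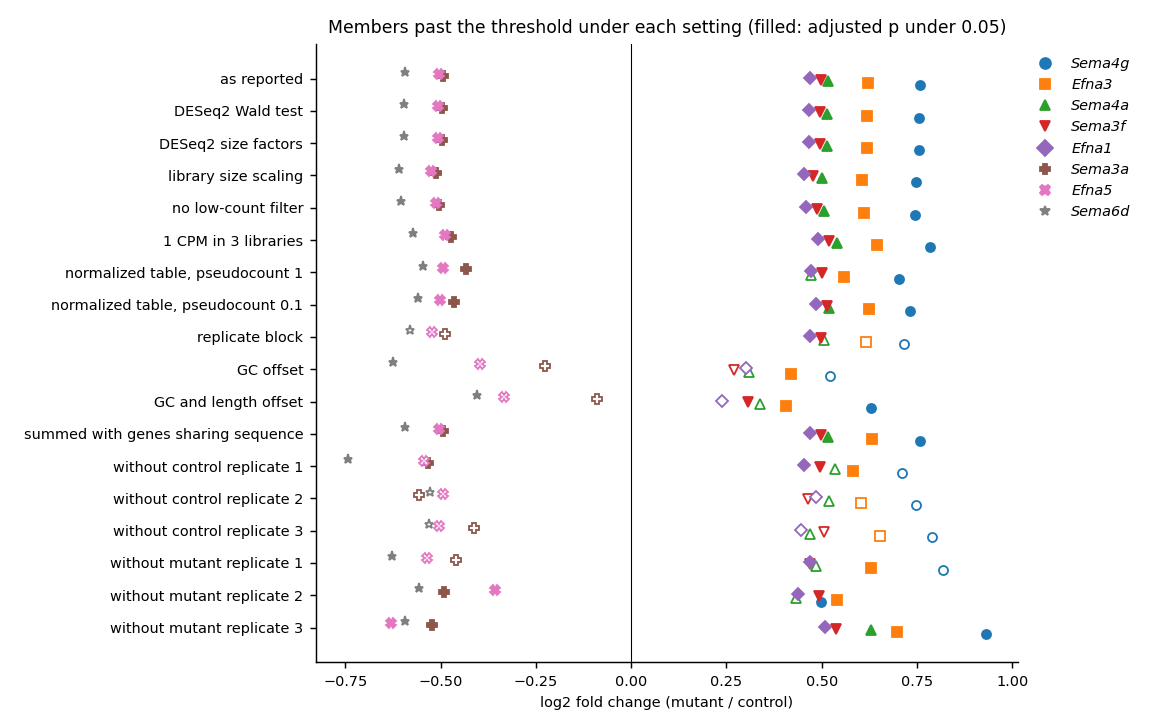
Log2 fold change (mutant over control) of the 8 called members as reported and under each of the 17 alternatives, with filled symbols for an adjusted p under 0.05. No gene changed sign, and all symbols are open without control replicate 2 or 3.

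The other guidance genes of a list of netrin pathway members gave 1 higher and 4 lower of 19 tested, beside 10.4% higher and 9.84% lower over all genes tested, with a median log2 fold change of -0.14. The 3 with the smallest p were UNC5 receptors, through which netrin repels. Unc5c was 46.8, 71.1 and 64.2 CPM in controls and 26.5, 17.2 and 24.9 CPM in mutants, a log2 fold change of -1.41 ± 0.20 (edgeR adjusted p = 0.00416). Unc5a (-1.34 ± 0.20, adjusted p = 0.0054) and Unc5d (-0.89 ± 0.15, adjusted p = 0.0092) were also lower, with all mutant libraries below all controls. These folds were larger than that of any called semaphorin or ephrin. Unc5b, the endothelial UNC5 receptor, had the highest level of the 4 (68.4 CPM per kb in controls and 63.7 in mutants) and overlapped between the groups at 399 to 471 and 318 to 464 CPM.

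Adhesion molecules of growth cones gave 0 higher and 4 lower of 11 tested (36.4% called, beside 20.2% of all genes), with a median log2 fold change of -0.56. The contactin Cntn4 was 3.27, 5.80 and 5.26 CPM in controls and 1.37, 1.28 and 1.73 CPM in mutants (log2 fold change -1.71 ± 0.25, edgeR adjusted p = 0.00493). Nrcam, an L1 family member (-1.22 ± 0.27, adjusted p = 0.0193), and Cntn6 (-1.18 ± 0.31, adjusted p = 0.0323) were lower too. Intracellular effectors of guidance receptors gave 2 higher and 2 lower of 37 tested (10.8% called). Dpysl3, a collapsin response mediator, was 60.0, 77.3 and 72.3 CPM in controls and 44.4, 36.8 and 36.9 CPM in mutants (-0.83 ± 0.13, edgeR adjusted p = 0.00542), whereas Limk2, a kinase of cofilin, was higher (0.52 ± 0.13, adjusted p = 0.03) and Vav3, an exchange factor downstream of Eph receptors, lower (-0.32 ± 0.091, adjusted p = 0.0428). Named only to complete these counts, after their values were seen, Rgma and Srgap1 were the other higher genes, and Flrt3 and Ncam2 the other lower ones. Ncam2, counted among the 4 lower adhesion genes, was 0.295, 0.977 and 1.25 CPM in controls and 0.304, 0.156 and 0.22 CPM in mutants. Its groups overlapped, and it entered the test through the controls, where it was higher, so its call carries no weight.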

How the data were processed

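Dental pulp RNA of 3 control and 3 mutant samples was sequenced as single-end reads of 75 cycles. A table of estimated counts for each gene was deposited. By the published methods, reads were aligned to mm10 with TopHat 2 and counted where they fell on exons. The submitters' processing notes name STAR 2.6.1d and Partek instead, and which made the table is not given in the sources used here, nor is the use of strand. The authors also deposited a normalized signal per gene, used only for alternatives. The table's 6 other sample columns were not used. The letter code in the label of control library 1 differs from that of the other controls and is not explained.

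Estimated counts were rounded to whole numbers, since the planned design had assumed whole counts. R 4.3.3 with edgeR 4.0.16 was used (TMM scaling, filterByExpr, quasi-likelihood test without a block, Benjamini-Hochberg adjustment over 19330 genes). DESeq2 1.42.0 and limma 3.58.1 served alternatives. Fold changes are edgeR's log2 values, and CPM are TMM-scaled. Exonic length, GC content and positions came from GENCODE M21 (all 60 genes matched), and promoter windows from RefSeq (GRCm38.p6). The scripts were tested on simulated data. Members and lists were chosen with earlier results of these data known. Named with values in every library were members with an adjusted p under 0.05 and the member of each family with the highest level per length, and outside the members the 3 genes of each other guidance list with the smallest p. Precision is limited by the spread between 3 libraries and, for genes with few reads, by counting error.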

Additional observations from a re-analysis of the deposited data

How the results depend on the processing

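The 8 called members kept their direction under all 17 alternatives. Each call was lost under at least 3 of them, and the causes were not tested. DESeq2's Wald test called 9 higher and 5 lower members, among them all 8, or 25% of the members beside 28% of all genes. The GC offset called 1 higher and 2 lower (13.4% of all genes), and the GC and length offset 3 higher and 3 lower with a median log2 fold change of 0.0099. Leaving out 1 library gave 0 to 7 higher and 0 to 4 lower members and a median log2 fold change of -0.25 to 0.00047. The lowest counts came without control library 2 or 3 and the highest without mutant library 3, and the median was nearest 0 without mutant library 2. Sample indices in the labels recur across groups, and the published methods mention 3 pairs of samples without saying which belong together. Same-index libraries did not deviate together (correlations of -0.10, -0.08 and -0.004), but with 3 libraries per group this check cannot exclude pairing. They were not treated as pairs in the reported fit. With the index as a replicate block, 2 members were higher (Efna1 and Sema3f) and 0 lower, with 18 at an unadjusted p under 0.05, and 2013 genes were called in all against 3906 without it. Of the 48 members not called, 21 changed sign under at least 1 alternative, Ephb3 among them with the GC offset (log2 fold change -0.0103). Of the 12 other genes given with a fold change, Unc5c, Unc5a, Cntn4 and Dpysl3 were called under every alternative, and the largest number of lost calls was 12, for Vav3. Members with few counts, such as Plxnb3 and Epha5, are further limited by counting error.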
